A study of Mus musculus with 2 samples.

Results

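Type 1 innate lymphoid-like cells (ILC1-like cells) of the liver were singled out from single-cell RNA profiles of hepatic leukocytes by a gate on raw transcript counts. A barcode was kept with at least 200 detected genes and at most 10% mitochondrial transcripts. It was a member with at least 2 transcripts of Ncr1 and Klrb1c together, at least 1 of Cxcr6, Itga1, Tnfsf10 and Il7r together, no Cd3d, Cd8a, Cd8b1 or Cd79a, at most 1 Cd3e, and no Klra8, Klra4 or Eomes. The members were thus chosen by their raw counts of these genes, in every cell of both libraries. The gate took 194 of 12576 kept barcodes, 96 of 5978 with Trem2-/- marrow and 98 of 6598 with Trem2+/+ marrow. The population most like it, called NK cells here, passed the same conditions except that it held at least 1 transcript of Klra8, Klra4 or Eomes, whatever its Cxcr6, Itga1, Tnfsf10 and Il7r, and numbered 81 and 135 barcodes in these libraries.

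One group was male C57Bl6/J mice lethally irradiated and given Trem2-/- bone marrow, and the group it was set against was equally treated males given marrow of Trem2+/+ littermates. All recovered for 6 weeks and then ate a methionine- and choline-deficient diet for 4 weeks, which produces steatohepatitis, so no group on a normal diet is compared. Viable CD45+ liver cells of 4 mice per group were combined in equal parts into 1 library for 10x Genomics 5′ sequencing. Cells cannot be traced to single mice, and none of the differences below was checked in replicates. The genotype is that of the marrow. Whether a given lymphoid cell came from donor or recipient was not determined, and tissue-resident lymphoid cells are known as a class that can outlast irradiation.

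Group 1 innate lymphoid cells comprise circulating conventional NK cells and tissue-resident ILC1. Both carry NKp46 (Ncr1) and, in C57BL/6 mice, NK1.1 (Klrb1c), and both use the transcription factor T-bet (Tbx21). ILC1 of mouse liver lack Eomes and are known for CD49a (Itga1, a collagen-binding integrin), TRAIL (Tnfsf10, a death ligand), CXCR6 (a chemokine receptor that holds lymphocytes in liver sinusoids) and the interleukin 7 receptor (Il7r), whereas conventional NK cells carry Eomes, CD49b (Itga2) and Ly49 receptors, the products of the Klra genes.

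The members held 470270 unique molecular identifier counts (UMIs, 1 per captured transcript molecule) in the Trem2-/- library and 471728 in the Trem2+/+ library, with medians of 4669.5 and 4329.5 per cell. NK cells were shallower, with medians of 3376 and 3224. Levels below are UMIs of a gene summed over cells over all UMIs of those cells, scaled to counts per 1e6 (CPM), and intervals are 95% limits for counting error only. UMIs are molecules, but cells of 1 library are not independent animals. The libraries shared 56 barcode sequences in all, and no member carried one. Trem2, the targeted gene, had 0 UMIs in Trem2-/- members and 9 UMIs in 3 Trem2+/+ members, against 154 and 5469 UMIs in the other kept barcodes of these libraries.

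The genes that define the gate were captured unevenly. Ncr1 was seen in 95.8% of Trem2-/- and 94.9% of Trem2+/+ members, and Klrb1c in the same 95.8% and 94.9%. Of the genes of which any 1 admits a cell, Il7r was the most widespread, in 64.6% of Trem2-/- and 72.4% of Trem2+/+ members, followed by Tnfsf10 in 56.3% and 46.9%, Cxcr6 in 42.7% and 38.8%, and Itga1 in 17.7% and 20.4%. Il7r was the only one of the 4 in 17 Trem2-/- and 23 Trem2+/+ members, and all 4 were seen together in 3 and 4. These shares chose the cells and are a description. The intervals of the libraries overlapped for each gene.

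**Figure D1:**
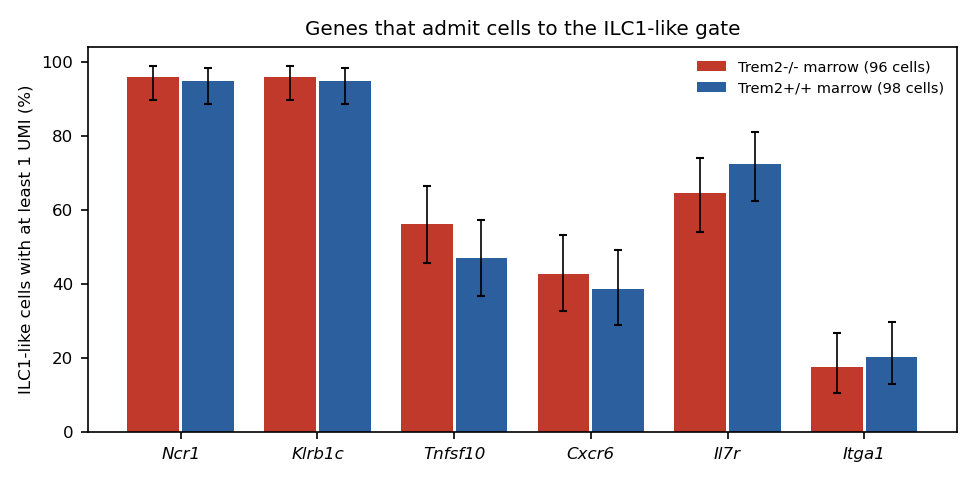
Share of ILC1-like cells (vertical axis, percent) with at least 1 UMI of each gene that admits cells to the gate, for 96 cells of the Trem2-/- library (left bars) and 98 cells of the Trem2+/+ library (right bars); error bars are exact 95% binomial intervals. Itga1 is the least often seen, in 17.7% and 20.4%.

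Free RNA in droplets gives stray UMIs. Shares were therefore also taken after thinning each cell to 1000 UMIs and set beside B cells, which should lack these genes. B cells were kept barcodes with at least 2 UMIs of Cd79a and none of Cd3d, Cd3e, Ncr1 or Klrb1c. UMIs of these very genes admitted the members, so a higher share than in B cells is built into the gate. The comparison therefore cannot tell stray UMIs from those of the members. Thinned, Il7r was seen in 31.9% of Trem2-/- and 35.7% of Trem2+/+ members, against 0.795% and 0.430% of B cells. Thinning left out 2 Trem2-/- and 0 Trem2+/+ members and 24 and 47 B cells, which had too few UMIs. Cxcr6 was seen in 17.0% and 12.2% of thinned members, against 0.318% and 0% of B cells, and Itga1 in 7.45% and 8.16%, against 1.43% and 1.87%. Pairs of gate genes were seen together in part of the members. In the Trem2-/- library Il7r was seen in 31 of 41 members with Cxcr6 and in 31 of 55 without it. In the Trem2+/+ library it was seen in 26 of 38 and 45 of 60, so the order differed between the libraries. The gate bears on this pair as well, since a cell without Cxcr6 needs another of the genes. Tnfsf10 was seen in 29 of 62 Trem2-/- members with Il7r and 25 of 34 without it, and in 28 of 71 and 18 of 27 Trem2+/+ members, a direction that the gate itself favours, since a cell without Il7r needs another of the genes.

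Cells just inside and just outside the gate show what its limits do. Barcodes that failed only for lack of Cxcr6, Itga1, Tnfsf10 and Il7r, 15 in the Trem2-/- and 31 in the Trem2+/+ library, held Gzma (granzyme A) at 5854 and 4576 CPM, whereas members with exactly 1 UMI of these genes held it at 972 and 914 CPM and all members at 370 and 265 CPM. Cells with 1 UMI of Ncr1 and Klrb1c instead of 2 numbered 18 and 21 and held Xcl1 at 225 and 217 CPM, against 6814 and 1313 CPM in the 6 and 13 members with exactly 2. A pair of the 6 Trem2-/- cells held 41 and 62 of their 106 Xcl1 UMIs, and 1 Trem2+/+ cell held 21 of 45, while each other cell held 0 to 9. Members that entered by Il7r alone held Xcl1 at 3471 and 3693 CPM, against 3237 and 2591 CPM in members with Cxcr6, Itga1 or Tnfsf10. They held Gzma at 739 and 35.6 CPM, against 304 and 337 CPM, so the order of these members differed between the libraries for Gzma. Klf2 stood at 321 CPM, against 97.9 CPM, in Trem2-/- members, and at 187 CPM, against 167 CPM, in Trem2+/+ members. The 321 CPM came from 23 UMIs, of which 1 cell held 13.

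Genes outside the gate followed the label. Of 21 genes of an ILC1 list with at least 20 UMIs over both populations and libraries, 17 were at least 2-fold higher in ILC1-like than in NK cells in both libraries and 1, Ctla2a, was at least 2-fold lower. The list's median log2 ratio was 1.80, with genes at 0 UMIs in a population set to 3 counts there. Of 20 genes of a conventional NK list, 16 were at least 2-fold lower in both libraries and 0 higher, with a median of -2.85. Over all 7673 genes with such counts the median was 0.00, with 190 at least 2-fold higher and 151 lower. At a floor of 25 UMIs in each library, ILC1-like and NK cells together, 83 of 4455 genes were at least 2-fold higher in ILC1-like cells in both libraries (1.86%) and 60 lower (1.35%). The gate drew on genes of this contrast, so these counts describe the populations and test nothing.

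**Figure D2:**
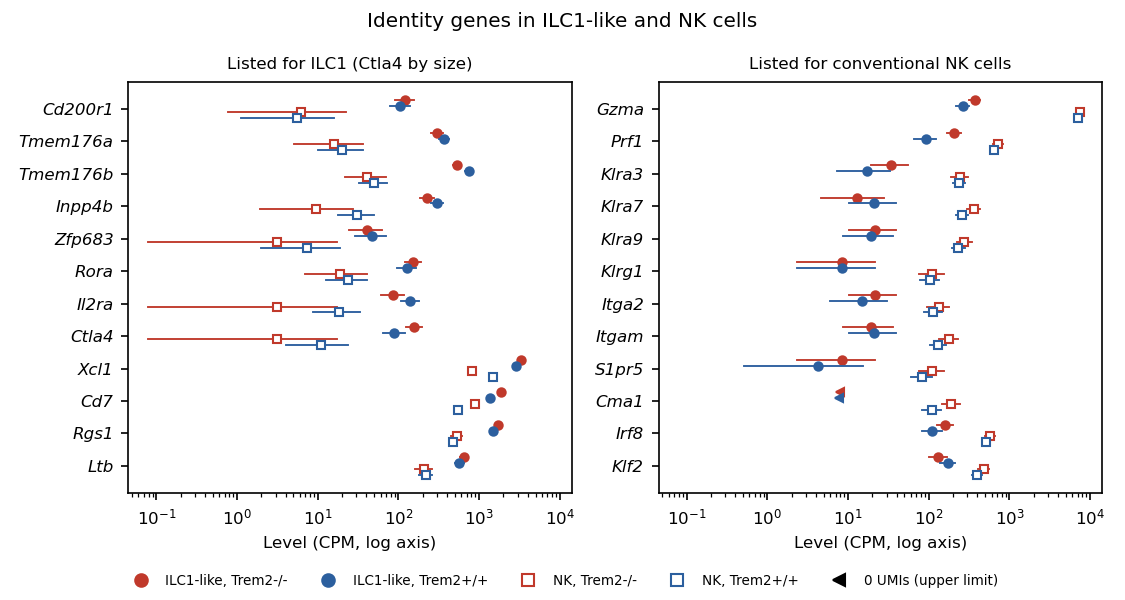
Levels (horizontal axis, CPM, log scale) of genes listed for ILC1 (left, with Ctla4 added for its size) and for conventional NK cells (right), in ILC1-like cells (filled circles) and NK cells (open squares) of the Trem2-/- (red) and Trem2+/+ (blue) libraries; lines are 95% Poisson intervals and a triangle marks the upper limit of a gene with 0 UMIs. Filled and open symbols separate in every gene shown, by a few-fold for Rgs1 and Ltb and by the most for genes such as Gzma, while the genotypes of a population lie closer to each other than the populations do.

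Cd200r1, an inhibitory receptor for CD200, stood at 119 CPM in ILC1-like against 6.29 CPM in NK cells of the Trem2-/- library, and at 106 against 5.47 CPM in the Trem2+/+ library. These are log2 ratios of 4.24 (2.32 to 7.32) and 4.28 (2.65 to 6.60). It was seen in 34.4% and 36.7% of members, against 2.47% and 2.22% of NK cells, and after thinning in 7.45% and 5.10% of members, against 0.318% and 0.287% of B cells. Inpp4b, a phosphoinositide phosphatase, had log2 ratios over NK cells of 4.58 and 3.28. The interleukin 2 receptor alpha chain Il2ra had 4.76 and 2.94, and the inhibitory receptor Ctla4 had 5.65 and 3.02. The oxysterol receptor Gpr183 had 2.97 and 3.43, and the nuclear receptor Rora 3.02 and 2.42. Klk8, a kallikrein protease, had 4.02 and 2.80. In Trem2-/- NK cells Il2ra, Ctla4 and Klk8 lay under the 9.43 CPM that 3 counts would give. Their Trem2-/- ratios thus rest on very few NK cell UMIs, and their sizes are uncertain. Under the alternatives the library ratio nearer to 0 fell as low as 0.18 for Klk8, 0.50 for Il2ra, 1.18 for Gpr183 and 1.35 for Ctla4. Its lowest value was 2.50 for Inpp4b and 2.04 for Rora. Ccdc184 had 40 UMIs in Trem2-/- and 66 in Trem2+/+ members, which were 59.7% and 78.6% of its UMIs in all kept barcodes of these libraries, against 3 and 0 UMIs in NK cells. Ctla4 was also present in the other kept barcodes, at 103 CPM in the Trem2-/- and 31.2 CPM in the Trem2+/+ library.

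Tmem176a and Tmem176b, which encode a pair of related membrane proteins, were among the genes with the highest ratios. Tmem176b held 534 CPM in ILC1-like against 40.9 CPM in NK cells of the Trem2-/- library, and 750 against 49.3 CPM in the Trem2+/+ library, log2 ratios of 3.71 (2.91 to 4.64) and 3.93 (3.36 to 4.55). Tmem176a held 304 against 15.7 CPM and 369 against 20.1 CPM, log2 ratios of 4.27 (3.02 to 5.92) and 4.20 (3.32 to 5.23). RefSeq in GRCm38.p6 lists 2 starts for Tmem176a and 3 for Tmem176b on chromosome 6. The nearest pair lies 109 bases apart and faces apart, with Tmem176a on the plus strand from position 48841483 and Tmem176b on the minus strand from 48841374. The window of Tmem176a, chr6:48841233-48841532 on the plus strand, holds these 2 starts and none of the others. It is shown because both genes have a start in it, with the stretch between these starts in capitals.
Tmem176a: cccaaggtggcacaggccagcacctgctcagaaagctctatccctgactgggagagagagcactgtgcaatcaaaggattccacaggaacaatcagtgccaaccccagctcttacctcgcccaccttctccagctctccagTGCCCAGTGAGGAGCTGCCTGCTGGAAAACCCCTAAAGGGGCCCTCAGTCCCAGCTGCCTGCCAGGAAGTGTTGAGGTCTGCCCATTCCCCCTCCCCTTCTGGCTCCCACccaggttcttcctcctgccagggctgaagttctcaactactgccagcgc

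Xcl1, a chemokine that draws cross-presenting dendritic cells, was the most abundant gene of the ILC1 list. It had 1539 UMIs and 3273 CPM in ILC1-like against 814 CPM in NK cells of the Trem2-/- library, which is 2.01 (1.82 to 2.20) as a log2 ratio, and 1346 UMIs and 2853 against 1474 CPM in the Trem2+/+ library, 0.95 (0.83 to 1.08). A single Trem2+/+ NK cell held 306 Xcl1 UMIs, whereas the highest value in a Trem2-/- NK cell was 58. The lower Trem2+/+ ratio thus leans on 1 NK cell, which its interval does not show. The members, 1.61% and 1.49% of kept barcodes, held 31.5% and 31.3% of all Xcl1 UMIs of their libraries. T-bet recognises the T-box motif, and its letters occur in the Xcl1 promoter. The RefSeq window of Xcl1 in GRCm38.p6, chr1:164935473-164935772 on the minus strand, from 250 bases before the start, is shown for that motif, read on the opposite strand and set in capitals at position -188 from the start.
Xcl1: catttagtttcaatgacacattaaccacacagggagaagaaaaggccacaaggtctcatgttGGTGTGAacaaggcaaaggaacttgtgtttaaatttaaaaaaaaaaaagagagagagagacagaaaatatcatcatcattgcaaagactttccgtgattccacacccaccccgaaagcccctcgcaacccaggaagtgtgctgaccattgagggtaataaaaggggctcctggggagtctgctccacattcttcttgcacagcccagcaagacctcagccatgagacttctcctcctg

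A script searched both strands of 32851 promoter windows of this length for 3 motifs: TCACACC (T-box), TGTGGTT (RUNX) and ACAGGAAG (ETS). Xcl1 also held the RUNX letters at position -228, apart from the T-box letters. Of the genes at least 2-fold higher in ILC1-like than NK cells, gate genes left out, 56 of 79 had windows, and the T-box letters were in 3 of their 81 windows (3.70%), against 3.98% of all windows. Of the genes lower than in NK cells 45 of 57 had windows, and the T-box letters were in 4 of 71 (5.63%). The RUNX letters were in 8.64% of the windows of higher genes and 2.82% of those of lower genes, against 5.27% of all. The ETS letters were in 6.17% and 8.45%, against 3.58% of all. A match of letters is not a bound site, and these shares rest on 2 to 7 windows each.

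The genes lower in ILC1-like cells were led by cytotoxic and circulating NK cell products. Gzma held 370 CPM in ILC1-like against 7586 CPM in NK cells of the Trem2-/- library, and 265 against 7029 CPM in the Trem2+/+ library, log2 ratios of -4.36 (-4.59 to -4.14) and -4.73 (-5.00 to -4.47). The mast cell-type protease gene Cma1 and the serpin Serpinb9b had 0 UMIs in the members of either library, where 3 counts would be 6.38 and 6.36 CPM, against 189 and 109 CPM for Cma1 and 116 and 181 CPM for Serpinb9b in NK cells. The egress receptor S1pr5 had log2 ratios of -3.69 and -4.28. The integrins Itga2 and Itgam had -2.63 and -2.93, and -3.20 and -2.63. The inhibitory receptor Klrg1 had -3.69 and -3.59.

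The Ly49 genes outside the gate followed those inside it: Klra7 had log2 ratios of ILC1-like over NK cells of -4.84 and -3.62, Klra9 -3.70 and -3.61, and Klra3 -2.83 and -3.82. The related lectin gene Klri2 had -2.50 and -2.65. Klra genes are close copies of each other, so their counts may be split or shared, and the gate removed cells with Klra8 or Klra4 UMIs. Perforin (Prf1), the pore former of cytotoxic granules, was lower by -1.79 and -2.83. Granzyme B (Gzmb) was lower by less, -1.05 and -0.60. A single Trem2+/+ NK cell held 201 Gzmb UMIs, against a highest value of 31 in Trem2-/- NK cells, so the Trem2+/+ ratio leans on that cell. Granzyme C ran the other way, with 264 CPM in Trem2-/- and 632 CPM in Trem2+/+ members against 0 and 25.6 CPM in NK cells, and the members held 62.3% and 75.8% of all Gzmc UMIs of their libraries. Its near-identical neighbours among the granzymes may share reads with it.

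Genes listed as shared by both populations went either way between them. Of 18 genes of a shared NK and ILC1 list, 1 was at least 2-fold higher in both libraries and 3 lower, with a median log2 ratio of -0.04. The higher gene was the lectin receptor Klrb1b, at 1.57 and 1.30. The lower genes were the signalling adaptor Tyrobp (DAP12), at -1.13 and -1.14, and the receptors Klre1, at -1.56 and -1.34, and Klrc2, at -1.33 and -1.64. Klrc2 is a close copy of Klrc1, so its counts are uncertain. Tbx21 stood at 287 against 280 CPM in the Trem2-/- library and 265 against 226 CPM in the Trem2+/+ library. The activating receptor Klrk1 (NKG2D) had log2 ratios of -0.18 and 0.04. Cd226 (DNAM-1), an activating receptor, stood apart at 310 against 84.9 CPM and 354 against 98.5 CPM, log2 ratios of 1.87 and 1.85. Of 17 activating and inhibitory receptors 7 were at least 2-fold higher in both libraries and 2 lower. Among 24 transcription factors 6 were higher and 4 lower: Ahr had 1.76 and 1.83, Zfp683 (Hobit, a residency factor) 3.68 and 2.68, and Ikzf2 (Helios) 1.44 and 1.96, whereas Klf2, which drives egress genes, had -1.87 and -1.21, Irf8 -1.85 and -2.21, and Zeb2 -1.36 and -1.54.

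Markers of other innate lymphoid cells were mostly at 0. Il17a, Il22, Il23r, Il13, Il5, Il1rl1 and Ccr6 had 0 UMIs in the members of either library. Gata3 stood at 74.4 and 72.1 CPM in ILC1-like against 62.9 and 52.9 CPM in NK cells, with the Trem2-/- library named before the Trem2+/+ library in each pair. Kit, the stem cell factor receptor, stood at 106 and 112 CPM against 37.7 and 23.7 CPM in the same order. T cell transcripts were present at low level although the gate set Cd3d to 0, and the B cell list of 10 genes summed to 147 and 136 CPM in members, against 97.5 and 76.6 CPM in NK cells. Of the B cell list, the immunoglobulin heavy chain gene Ighm had 64 UMIs in Trem2-/- and 57 in Trem2+/+ members, and Ms4a1 had 0. The T cell list, of 15 genes with Cd3g among them, summed to 519 CPM in Trem2-/- and 515 CPM in Trem2+/+ members, against 465 and 502 CPM in NK cells. Cd3g was seen in 11 Trem2-/- and 6 Trem2+/+ members, and the receptor constant gene Trbc1 in 35 and 41. A variable segment of a T cell receptor was seen in 42 Trem2-/- and 28 Trem2+/+ members, by Trdv4 with 54 and 25 UMIs and by Trdv2-2 with 12 and 7, whereas the constant gene Trdc had 2 and 4 UMIs. NK cells held Trdv4 too, with 26 and 44 UMIs. The part of unconventional T cells among the members was not tested.

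ILC1-like cells made up 1.61% (1.30% to 1.96%) of kept Trem2-/- barcodes and 1.49% (1.21% to 1.81%) of kept Trem2+/+ barcodes. The log2 ratio of these shares was 0.11 (-0.29 to 0.52), so no difference was detectable at these cell numbers. NK cells made up 1.35% (1.08% to 1.68%) and 2.05% (1.72% to 2.42%), and the log2 ratio of shares was -0.59 (-0.99 to -0.20). ILC1-like cells were therefore 54.2% (46.6% to 61.7%) of ILC1-like and NK cells together among Trem2-/- barcodes and 42.1% (35.6% to 48.7%) among Trem2+/+ barcodes, with a log2 ratio of 0.37 (0.07 to 0.66). The size of that gap depended on the gate and the depth. The shares were closest, at 49.1% and 46.4%, without cells with Cd3e or a variable segment, and were 44.4% and 39.5% when every barcode was thinned to 1000 UMIs before gating. They were 47.1% and 36.9% with at least 2 UMIs of Cxcr6, Itga1, Tnfsf10 and Il7r, and 58.5% and 46.7% against NK cells without such UMIs. They lay further apart with Il7r left out of the gate, at 49.4% and 35.7%, and without cells rich in other cell types' transcripts, at 55.0% and 40.9%. The variation between mice is not known, and these intervals do not contain it.

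The members varied among themselves in their effector transcripts. Xcl1 per cell had a median of 8.5 UMIs and a highest value of 205 in the Trem2-/- library, and a median of 5.5 and a highest value of 225 in the Trem2+/+ library, with 0 as the lowest in both. Ccl5, a chemokine of activated lymphocytes, was more even, with medians of 27 and 19.5 and highest values of 88 and 96. Gzma was seen in 23 Trem2-/- and 18 Trem2+/+ members only, and the 5 richest cells held 62.1% and 67.2% of its UMIs. Gzmc was seen in 19 and 20 members, with 75.8% and 71.8% of its UMIs in 5 cells. The sums of Gzma and Gzmc thus rest mainly on a handful of cells. Gzmb was intermediate, in 48 and 51 members. Interferon gamma (Ifng), the signature cytokine of the group, was seen in 20 Trem2-/- and 23 Trem2+/+ members at 121 and 93.3 CPM.

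**Figure D3:**
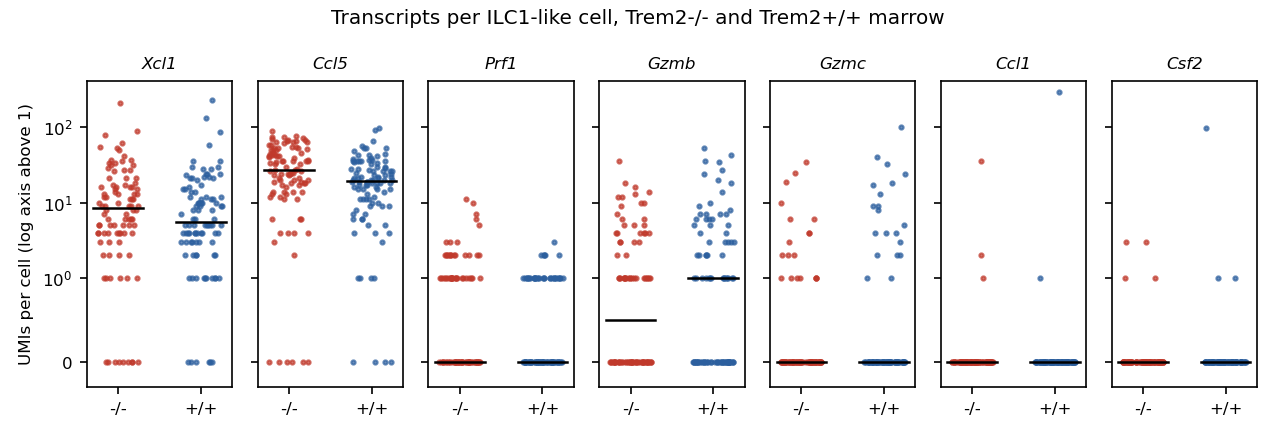
UMIs per ILC1-like cell (vertical axis, logarithmic above 1) of 7 effector genes in the Trem2-/- (left, red) and Trem2+/+ (right, blue) library; each point is a cell and black lines are medians. Xcl1 and Ccl5 are seen in most cells, Gzmc in 19 and 20 cells, and almost all Ccl1 and Csf2 UMIs come from 1 cell per gene in the Trem2+/+ library.

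Between the marrow genotypes the members' profiles were close. Of 2970 genes with at least 50 UMIs over both libraries, 26 were at least 2-fold higher in the Trem2-/- library (0.875%) and 54 at least 2-fold lower (1.82%). In NK cells 21 of 2730 genes were higher (0.769%) and 36 lower (1.32%). The median log2 ratio of ILC1-like cells over 5872 genes with at least 20 UMIs was 0.00. With 1 library per genotype these folds are sizes and not tests. Among the 2877 genes that reached at least 0.5 of their level in the other kept barcodes, in the library where they were higher, 26 were higher (0.904%) and 25 lower (0.869%) in the Trem2-/- library.

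**Figure D4:**
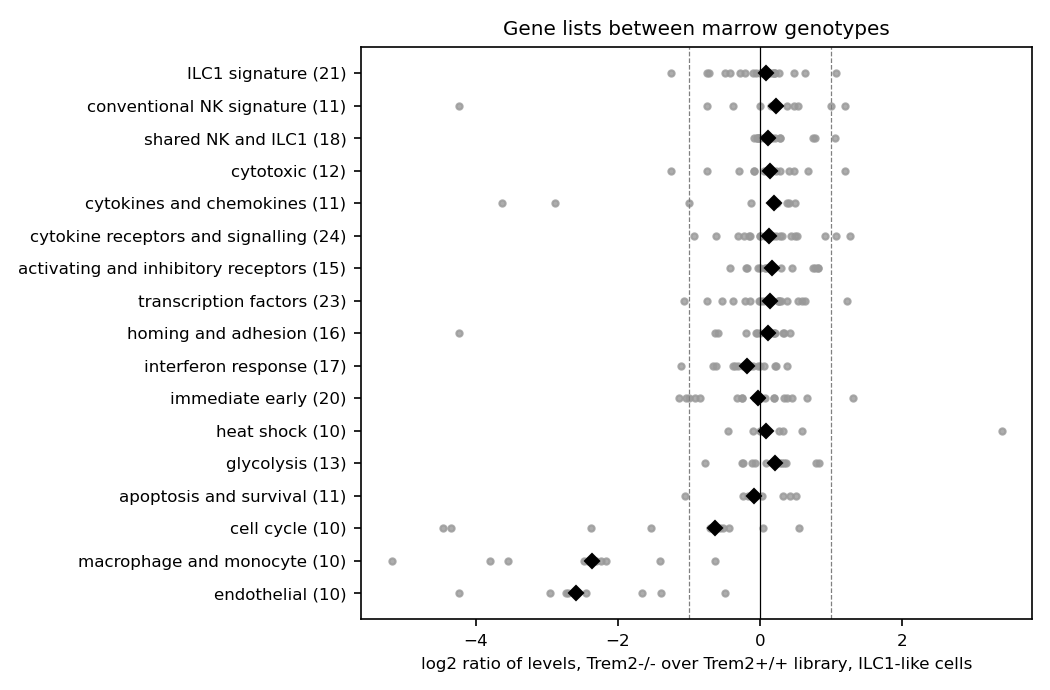
Log2 ratio of levels, Trem2-/- over Trem2+/+ library, in ILC1-like cells (horizontal axis) for genes of 17 lists (grey points, number of genes in brackets), with list medians as black diamonds and 2-fold limits dashed. Lymphocyte lists have medians near 0, and the lists of macrophage and endothelial genes lie to the left, at -2.36 and -2.59.

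The identity lists had medians near 0 between genotypes. The median log2 ratio, Trem2-/- over Trem2+/+, was 0.09 over 21 ILC1 list genes and 0.22 over 11 conventional NK list genes, with 1 and 2 genes at least 2-fold higher and 1 of each list at least 2-fold lower. For these lists, and over all 5872 genes, of which 165 were at least 2-fold higher and 235 lower, the spread of single genes was wider than the medians. Cd200r1 had 119 CPM in the Trem2-/- against 106 CPM in the Trem2+/+ library, which is 0.17 (-0.41 to 0.75) as a log2 ratio. Xcl1 had 0.20 (0.09 to 0.30), and 0.01 without the members rich in other cell types' transcripts described below. Tmem176b had -0.49 (-0.73 to -0.25) and Tbx21 0.12 (-0.25 to 0.48).

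Among effector genes, perforin and the granzymes went in different directions. Prf1, on chromosome 10 at 61297833 to 61304680 of mm10, had 98 UMIs in 45 Trem2-/- members and 43 UMIs in 36 Trem2+/+ members. Its levels were 208 and 91.2 CPM, a log2 ratio of 1.19 (0.66 to 1.75), and the ratio was 1.13 without the richest cell of each library. The highest cell held 11 UMIs in the Trem2-/- library and 3 in the Trem2+/+ library, and the ranges overlap. In NK cells the Prf1 ratio was 0.15, from 723 and 650 CPM. Whether the ratios of the 2 populations differ was not tested.

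Gzmb had 243 UMIs in the Trem2-/- and 411 in the Trem2+/+ library, which is -0.75 (-0.99 to -0.52) as a log2 ratio, although the cells that held it were as many, 48 and 51. Gzmc had 124 and 298 UMIs, -1.26 (-1.57 to -0.95), of which a single Trem2+/+ cell held 100. Gzma, the NK cell granzyme, had 174 and 125 UMIs, 0.48 (0.14 to 0.82). Fasl, the ligand of the death receptor Fas, had 276 and 174 CPM, 0.67 (0.26 to 1.09). Over the 12 cytotoxic genes with enough counts the median was 0.14, with 7 above 0 and 5 below.

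Of 11 cytokine and chemokine genes, 0 were at least 2-fold higher in the Trem2-/- library and 2 lower, with a median of 0.20 that ran from -0.40 to 0.23 under the alternatives. Ccl5 had 6520 CPM in the Trem2-/- against 4659 CPM in the Trem2+/+ library, 0.48 (0.41 to 0.56), and Ccl4 had 1878 against 1420 CPM, 0.40 (0.26 to 0.55). Without the members rich in other cell types' transcripts the ratios were 0.37 for Ccl5 and 0.63 for Ccl4, both outside these intervals. A single Trem2-/- cell held 196 Ccl4 UMIs. The counting intervals of these abundant genes are narrow, but they contain no variation between animals. Ifng had a ratio of 0.38 (-0.21 to 0.98). The 2 lower genes were single-cell events. Ccl1, a ligand of CCR8, had 39 UMIs in 3 Trem2-/- members and 288 UMIs in 2 Trem2+/+ members, and 1 Trem2+/+ cell held 287 of them. The same cell held 97 of the 99 Trem2+/+ UMIs of Csf2 (GM-CSF), against 8 UMIs in 4 Trem2-/- members. The log2 ratios were -2.88 for Ccl1 and -3.62 for Csf2, and 1.59 and 1.33 without the richest cell of each library. The richest Trem2-/- cells held 36 of the Ccl1 and 3 of the Csf2 UMIs, so the ratios without richest cells rest on a few UMIs.

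Cytokine receptors and their feedback inhibitors held 2 of the higher genes. Il21r, the interleukin 21 receptor, had 92 UMIs in 45 Trem2-/- members and 44 UMIs in 27 Trem2+/+ members, a log2 ratio of 1.07 (0.54 to 1.62), and -0.33 in NK cells. Socs3, an inhibitor of cytokine signalling, had 48 and 20 UMIs, 1.27 (0.49 to 2.10), with 1.23 in NK cells. Socs2 had 60 and 32 UMIs, 0.91 (0.27 to 1.58). Over the list of 24 genes the median was 0.12, with 18 above 0, 2 at least 2-fold higher and 0 at least 2-fold lower. The inhibitory NK receptor gene Klrc1 (NKG2A) had 423 CPM in the Trem2-/- against 252 CPM in the Trem2+/+ library, 0.75 (0.41 to 1.09), with 0.74 in NK cells. Lag3 had 0.82 (0.01 to 1.67) and Ctla4 0.82 (0.26 to 1.40), and of 15 activating and inhibitory receptors 0 passed 2-fold either way.

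Of 23 transcription factors 1 was at least 2-fold higher and 1 lower, with a median of 0.13. Bach2, a repressor that restrains effector programmes, had 35 UMIs in 30 Trem2-/- members and 15 UMIs in 15 Trem2+/+ members, a log2 ratio of 1.23 (0.32 to 2.21). Maf had 50 and 105 UMIs, -1.07 (-1.58 to -0.57), but is also a macrophage gene and held -0.89 without the members rich in such transcripts. The other genes that led the higher side were Rab18 (1.40), Pigt (1.38), Tagap (1.38), Snx6 (1.31), Pink1 (1.25), Sp3 (1.23), S1pr4 (1.19), Eftud2 (1.17) and Rbm7 (1.17). Rab18 and Snx6 act in membrane traffic, Pigt in lipid anchoring of proteins, and Pink1 in mitochondrial quality control. All but Tagap had under 70 UMIs over both libraries, and their lower limits lay between 0.29 for Rbm7 and 0.78 for Tagap.

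**Figure D5:**
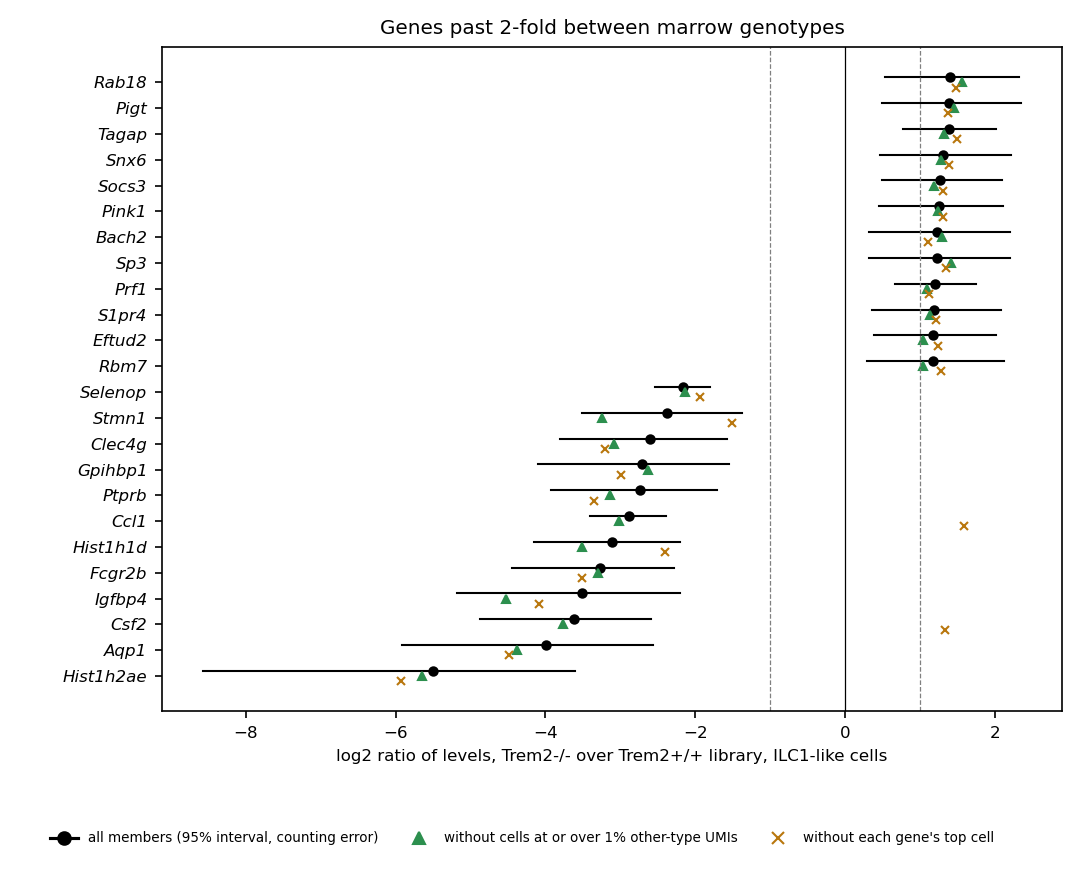
Log2 ratio of levels, Trem2-/- over Trem2+/+ library, in ILC1-like cells (horizontal axis) for the 12 highest and 12 lowest genes past 2-fold: all members with 95% counting intervals (circles), without members with at least 1% of UMIs from other cell types' genes (triangles), and without each gene's richest cell (crosses). Ccl1 and Csf2 change side without 1 cell, on few UMIs, while the higher genes keep ratios above 1 in the settings shown. Under other alternatives every higher gene except Prf1 fell below 1 in at least 1 setting, with Tagap at 0.06 and Rbm7 at -0.68.

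Many of the lower genes were markers of other cell types or of proliferation. Summed macrophage and monocyte markers stood at 447 CPM in Trem2-/- and 2480 CPM in Trem2+/+ members, against 11742 and 19204 CPM in the other kept barcodes. The same list stood at 1446 and 3396 CPM in NK cells. All 10 such markers with enough counts were lower, with a median log2 ratio of -2.36. Lyz2 (lysozyme) had 35 and 411 UMIs, and 1 Trem2+/+ cell held 247 of them. Genes of other cell types took at least 1% of UMIs in 2 Trem2-/- and 8 Trem2+/+ members. Without these members Lyz2 had 35 and 31 UMIs, Apoe 53 and 45, and Trem2 0 and 0. Lyz2 and Apoe were among the genes that picked these members, so their fall in the Trem2+/+ library is in part built in. Of the 54 lower genes 21 remained among the 24 then found lower, and of the 26 higher genes 16 remained among 21.

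Endothelial markers summed to 217 CPM in Trem2-/- and 803 CPM in Trem2+/+ members, and 10 of 10 were lower, with a median of -2.59. In the other kept barcodes the order was the opposite, with 2535 CPM in the Trem2-/- and 1411 CPM in the Trem2+/+ library. NK cells held 167 and 350 CPM. Unlike macrophage genes, the endothelial markers stayed lower in members without those rich in other cell types' genes. The lectin Clec4g of sinusoidal endothelium then had 4 and 31 UMIs, and the phosphatase Ptprb 4 and 32. Genes named by size that also stayed lower were the water channel Aqp1 (-4.00 in all members), Igfbp4 (-3.51), the Fc receptor Fcgr2b (-3.27), Gpihbp1 (-2.71), which anchors lipoprotein lipase on capillaries, and the selenium carrier Selenop (-2.16), whose ratios without those members were -4.38, -4.53, -3.30, -2.64 and -2.13. Under the alternatives the ratios shrank to -0.20 for Gpihbp1, -0.68 for Ptprb, -0.79 for Fcgr2b and -0.93 for Clec4g. Those of Aqp1, Igfbp4 and Selenop shrank at most to -2.26, -1.44 and -1.02. Igfbp4 was seen in 3 Trem2-/- and 7 Trem2+/+ members, and Aqp1 in 3 and 9. After thinning, Igfbp4 was seen in 1.06% and 4.08% of members, against 3.02% and 2.87% of B cells, and Aqp1 in 1.06% and 7.14%, against 3.82% and 3.73%. The Trem2-/- shares lay below those of B cells in both genes and the Trem2+/+ shares above them, but the shares of members rest on a few cells each. Whether they differ from the B cell shares was not tested. In NK cells Aqp1 had a ratio of -3.17 and Selenop one of -1.01. Whether these transcripts came from attached cells, from free RNA or from the members was not tested.

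Proliferation genes came from few cells. Mki67 had 2 UMIs in 2 Trem2-/- members and 41 UMIs in 7 Trem2+/+ members. The histone genes Hist1h2ae and Hist1h1d had 2 and 91, and 11 and 95 UMIs, log2 ratios of -5.50 (-8.57 to -3.61) and -3.11 (-4.16 to -2.20), and the Hist1h2ae UMIs lay in 2 and 6 members. Histone genes have near copies, so their assignment is uncertain. Stmn1, a microtubule regulator of dividing cells, had 10 and 52 UMIs, -2.37 (-3.52 to -1.38). Of 10 cell cycle genes 2 lay above 0 and 8 below, with a median of -0.63.

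Stress and interferon lists had medians near 0. Of 17 interferon response genes 5 were above 0 and 12 below, with a median of -0.19. In all members 0 were at least 2-fold higher and 1, Bst2, was at least 2-fold lower, at 44 and 95 UMIs, with -1.11. Without the members rich in other cell types' genes Bst2 had -0.74. Ifi27l2a then stood the other way past 2-fold, with 41 and 9 UMIs and 2.05 (0.99 to 3.28). Of 20 immediate early genes 10 were above and 10 below 0. Zfp36 had -1.05 and Fos -0.85, and -0.43 and -0.21 without the members rich in other cell types' genes. Not all lower genes shrank so far, since Fosb then had -1.28 (-2.14 to -0.46) from 19 and 42 UMIs. Egr1 had 1.30 (0.33 to 2.36) from 32 and 13 UMIs in all members. Glycolysis genes had a median of 0.21 and heat shock genes one of 0.08, where Hspa1b stood out with 21 UMIs in 8 Trem2-/- members and 2 UMIs in 2 Trem2+/+ members. Fewer cells with a transcript and fewer transcripts per cell cannot be told apart in these summed levels.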

How the data were processed

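The members and gene lists were chosen with earlier results of these data known. The authors deposited raw UMI counts per gene and barcode for 32285 genes, with the gene and barcode names as other text files. Per the submitters' processing notes, reads were aligned to mm10 with Cell Ranger, version 5.0.1 per the file headers. No source used here gives the annotation release; 99.6% of gene IDs matched GENCODE M21. The libraries held 25288032 (Trem2-/-) and 27238586 (Trem2+/+) UMIs in 6362 and 7012 barcodes.

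Counts of genes with 1 symbol were added up. Groups were the marrow genotypes, with 1 library each, so no test was made. UMIs were summed over cells and divided by their total (CPM), with exact Poisson limits; ratios of sums have exact conditional binomial limits, shares exact Clopper-Pearson limits and ratios of shares large-sample limits (SciPy 1.17.1). A fold against 0 UMIs was computed against 3 counts in that library. Genes needed 50 UMIs over both libraries between genotypes, 25 UMIs in each library over both populations between populations, and 20 in all for lists. Named are the 12 genes with the highest and the 12 with the lowest ratio past 2-fold. Left out of this ranking were gate genes, Trem2, receptor segments, mitochondrial, ribosomal, haemoglobin, sex-linked, hepatocyte and unnamed genes and, between genotypes, genes under 0.5 of their level in other barcodes. Genes of the lists may be named at any size. Some genes that these rules name are not reported here. Scrublet (scanpy 1.11.5) marked 4 and 2 barcodes (0.0629% and 0.0285%), so doublet calling had not worked and doublets were kept. The scripts were tested on simulated data. Scaling by edgeR 4.0.16 and DESeq2 1.42.0 factors was among the alternatives. Promoters are from RefSeq (GRCm38.p6).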

Additional observations from a re-analysis of the deposited data

Results flagged for a closer look

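In 5 genes the log2 ratio of Trem2-/- over Trem2+/+ was at least 2-fold one way in ILC1-like cells and the opposite way in NK cells. With 1 library per genotype, the difference between the populations was not tested in any of them. Il1b had -4.78 in ILC1-like and 3.13 in NK cells, from 8 and 221 UMIs in members and 56 and 11 UMIs in NK cells, with 173 of the 221 in 1 cell. Spp1 had -3.455 in ILC1-like and 3.91 in NK cells, with 47 of 55 Trem2+/+ member UMIs and 88 of 96 Trem2-/- NK UMIs in 1 cell each. Cxcl2 had -1.03 and 4.27, with 140 of 146 Trem2-/- NK UMIs in 1 cell. Hist1h2ae had -5.50 and 2.61, with 41 of 46 Trem2-/- NK UMIs in 1 cell. Hist1h1c had -1.22 and 1.45, with 26 of 49 Trem2-/- NK UMIs in 1 cell. Il1b, Spp1 and Cxcl2 are genes of myeloid cells. Without the members with at least 1% of UMIs from other cell types' genes, Il1b had 8 and 9 UMIs and a log2 ratio of -0.30, whereas Spp1 still had 5 and 55 UMIs and -3.59.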

How the results depend on the processing

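No paired analysis was possible because each genotype has 1 library, and for the same reason no library could be left out. Among ratios of shares and counts of genes, 85 values under an alternative stayed within their limits and 17 moved. The 26 genes higher between genotypes became 14 with at least 2 UMIs of Cxcr6, Itga1, Tnfsf10 and Il7r, 17 with Il7r out of the gate and 15 without Cd3e and variable segments. The 54 lower genes became 35 without the 5% highest Scrublet scores, 20 without members above the 95th percentile of UMIs, and 24 without members rich in other cell types' genes. Thinning members to 1000 UMIs left 5 higher and 5 lower, lower count floors gave 165 and 235, and higher floors 4 and 20. Against NK cells, thinning gave 18 and 31 in place of 83 and 60, lower floors 159 and 128, and higher floors 46 higher. Removing the members rich in other genes, an alternative chosen after seeing the data like the removal of each gene's richest cell and of NK cells with a gate gene, turned the macrophage median to 0.0722 and the dendritic median to 0.0637, and leaving Il7r out turned the dendritic median to 0.60. The macrophage and dendritic genes themselves picked the members rich in other genes, so the turns on their removal are in part built in. List medians near 0 between genotypes also crossed it under some alternatives: ILC1 genes ran from -0.13 to 0.33, cytokines and chemokines from -0.40 to 0.23, activating and inhibitory receptors from -0.18 to 0.34, interferon response from -0.38 to 0.06, immediate early genes from -0.13 to 0.15, glycolysis from -0.08 to 0.27 and heat shock from -0.01 to 0.20. The conventional NK list ran from -0.00191 to 0.43. Rbm7 turned to -0.68 on thinning, and Csf2 and Ccl1 to 1.33 and 1.59 without their richest cells, where few UMIs remained. Of the named higher genes, Tagap fell as low as 0.06, Socs3 0.21 and Snx6 0.42, and only Prf1 stayed above 1, with a lowest value of 1.02. Fewer UMIs or cells enter under thinning and stricter gates; other causes were not tested. The single library per genotype limits every genotype value, and genes near the floors are limited by counts.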
